A study of Mus musculus with 14 samples.

Results

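A set of 9 lipid genes of the squamous barrier was followed in bulk RNA-Seq of mouse esophagus: Alox12b, Aloxe3, Alox12, Cers3, Elovl4, Abca12, Ugcg, Sptlc3 and Fabp5. They were picked by symbol, and all 9 were found among the 55291 genes listed. The samples came from 9 C57BL/6 mice without a reported transgene or treatment. Peeled epithelium was sequenced from 5 aged mice (O1, O2, O3, OF5 and OM8, 18 months or more) and 4 young mice (Y1, Y3, YF5 and YM4, 4 months or less). Stroma, which appears to be the muscle-rich tissue removed from the epithelial sheet, was sequenced from 5 of the same mice, the aged O1, O2 and O3 and the young Y1 and Y3. The labels do not give the sex of every mouse, so sex was not compared. The letters and digits of the mouse codes come in 2 forms, called numbered (O1, O2, O3, Y1, Y3) and lettered (OF5, OM8, YF5, YM4) here, and what the forms stand for is not given in the sources used here.

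Squamous epithelia seal their surface with lipids that keratinocytes make as they differentiate. In skin, very long fatty acids are built by elongases, joined to a sphingoid base to give ceramides, glucosylated, moved by ABCA12 into lamellar granules and oxidized by lipoxygenases on the way to the corneocyte lipid envelope. The esophagus of rodents is keratinized too, and loss of several of these genes in people causes ichthyosis, a scaling of the skin.

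Epithelial samples held 8217516 to 21867101 counts in total and stromal samples 13257833 to 15644580. Counts in protein-coding genes, without those of the mitochondrial genome, were 1021586 to 1388574 in the 4 lettered epithelial samples, 7918744 to 10992868 in the 5 numbered ones and 5980721 to 7641887 in stroma. Values below are normalized counts, that is, CPM values (counts scaled to a common library size) on the TMM-adjusted library size, and 3 counts were worth 0.0872 to 1.25 in epithelium and 0.115 to 0.175 in stroma. The labelled layers were checked against marker genes. The 7 superficial keratinocyte markers summed to 17770 to 54510 in epithelium and 36 to 456 in stroma, and the 12 skeletal muscle markers to 170 to 1855 in epithelium and 42350 to 76540 in stroma. These lists separated the layers, and stroma was rich in skeletal muscle. The superficial sums were mostly Krt4 and Krt13, with epithelial means of 18490 and 15800 against 1097 for the next marker, Sprr3. Other lists overlapped, with the 6 fibroblast markers at 281 to 633 in epithelium and 415 to 1031 in stroma and the 5 smooth muscle markers at 333 to 835 and 303 to 2051, so the epithelial samples also held RNA of connective tissue genes.

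The stretches before the annotated start of 4 genes are shown because they cover the range of differences between the layers described below, from Alox12b, Cers3 and Elovl4 with the stromal level under 3% of the epithelial level in each mouse to Alox12 with up to 78.4%. They are from the RefSeq promoter table (GRCm38.p6), which matched 7 of the 9 genes, and run 5′ to 3′ on the strand of the gene. Capitals mark exact matches, on either strand, to CACCC or GGGCGG (bound by KLF and SP factors) or AGGTCA (a nuclear receptor half-site).
Alox12b (chr11:69156822-69156988, plus strand): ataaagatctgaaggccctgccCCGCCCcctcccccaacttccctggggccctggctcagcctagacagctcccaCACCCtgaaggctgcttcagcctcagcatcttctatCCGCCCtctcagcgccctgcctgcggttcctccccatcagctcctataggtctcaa
Cers3 (chr7:66743254-66743503, plus strand): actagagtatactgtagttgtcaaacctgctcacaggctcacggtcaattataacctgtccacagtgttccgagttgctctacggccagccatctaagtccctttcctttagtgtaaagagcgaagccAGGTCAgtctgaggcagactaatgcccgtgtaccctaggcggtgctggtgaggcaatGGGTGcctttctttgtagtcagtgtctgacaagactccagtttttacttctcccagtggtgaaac
Elovl4 (chr9:83806306-83806555, minus strand): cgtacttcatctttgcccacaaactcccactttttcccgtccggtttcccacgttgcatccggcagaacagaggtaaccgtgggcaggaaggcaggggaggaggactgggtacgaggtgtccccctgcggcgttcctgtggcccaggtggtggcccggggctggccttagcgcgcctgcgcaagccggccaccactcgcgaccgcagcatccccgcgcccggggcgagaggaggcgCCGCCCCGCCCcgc
Alox12 (chr11:70255371-70255620, minus strand): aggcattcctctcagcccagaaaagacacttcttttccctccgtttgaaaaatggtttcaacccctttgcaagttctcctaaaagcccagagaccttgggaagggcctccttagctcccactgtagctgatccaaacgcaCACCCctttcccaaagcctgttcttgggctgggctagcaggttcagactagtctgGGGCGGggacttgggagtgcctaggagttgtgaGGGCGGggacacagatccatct
In the whole window of 300 bases, CACCC was present in 4 of the 7 matched genes and in 57.5% of the 32851 promoters of the table, and GGGCGG in 4 of 7 and 35.7%. AGGTCA was present in 1 of 7, that of Cers3, against 16.3% of all promoters. CCAAT was found in 1 (37.4% of all) and CACGTG, an E-box, in 1 (7.15%), both in Elovl4. TGANTCA (AP-1, 7.81% of all), AACCNGTT (GRHL, 2.09%), TATAAA (13.6%) and TCACNCCAC (SREBP, 1.24%) were not matched in these windows. The windows of Abca12 and Sptlc3, which are not shown, held no match to any of the motifs named here. Alox12b, Alox12 and Ugcg each held both CACCC and GGGCGG.

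All 9 genes were higher in epithelium than in stroma with edgeR's quasi-likelihood test and Benjamini-Hochberg adjusted p-values under 0.05, where 56.2% of the 16791 genes tested were called (26.1% higher in epithelium and 30.1% lower). For 8 of the 9, every epithelial sample lay above every stromal sample, which held for 14.4% of the genes tested. Their median log2 fold change was 6.77, against -0.05 over all genes tested, and 0.744% of the genes tested reached 6.77. In 7 genes the fold was over 50. The genes Ugcg and Alox12 had smaller differences. Fewer cells of a type and less RNA per cell cannot be told apart in such samples.

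**Figure D1:**
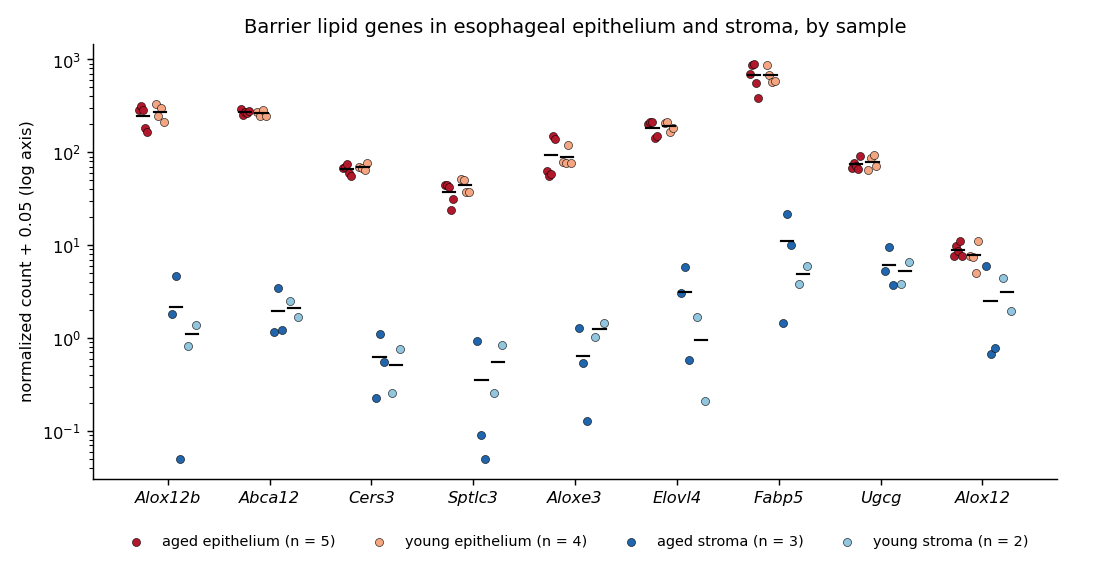
Normalized counts (plus 0.05, log axis) of the 9 genes in each sample, with points for samples and bars for group means. For 8 genes every epithelial point lies above every stromal point, while Alox12 in stroma reaches 5.95 and in epithelium goes down to 5.0.

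The lipoxygenases come last in the pathway and are given first. Alox12b (positions are in GRCm38, here chromosome 11, 69156989 to 69169792, and all 9 genes are protein-coding) encodes the lipoxygenase that oxidizes the linoleate of acylceramides. Its normalized count was 165 at the lowest, 285 at the median and 330 at the highest of the 9 epithelial samples, and in stroma 1.75 in O1, 4.60 in O2, 0 in O3, 0.774 in Y1 and 1.34 in Y3. The layers were far apart, with a log2 fold change of 7.24 ± 0.75 (SE, adjusted p = 6.145e-07, edgeR, Benjamini-Hochberg), which was 8.03 without O2. Aloxe3 (chromosome 11, 69125896 to 69149115), its neighbour on the same strand, encodes the enzyme that takes the product of Alox12b on. It ranged from 55.5 through a median of 77.6 to 149 in epithelium and was 1.23, 0.493, 0.0765, 0.980 and 1.42 in the stroma of O1, O2, O3, Y1 and Y3. Its log2 fold change was 6.77 ± 0.52 (adjusted p = 6.543e-09, edgeR). Its coefficient of variation in epithelium was 39.4% over the 9 samples, 16.2% within numbered and 26.0% within lettered codes.

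Alox12 (chromosome 11, 70241457 to 70255353, minus strand), the lipoxygenase first known from platelets, was low in both layers. It had 5.0, 7.65 and 11.1 normalized counts at the lowest, median and highest epithelial sample and 5.95, 0.616, 0.727, 4.33 and 1.89 in the stroma of O1, O2, O3, Y1 and Y3. Only the stroma of O1 reached into the epithelial range. The log2 fold change was 1.65 ± 0.43 (95% interval 0.75 to 2.55, adjusted p = 0.00288, edgeR), and against a fold of 2 the adjusted p was 0.0647. The 5 platelet markers summed to 3.46 to 7.58 in epithelium and to 16.7, 8.83, 16.7, 12.5 and 6.34 in the stroma of O1, O2, O3, Y1 and Y3, with 1 of the 5 markers at 0 in all stromal samples. Of the 3 that could be tested, Ppbp (-4.97) and Pf4 (-1.72) were lower in epithelium and Itga2b (-0.21) was not called, and Gp9 and Gp1bb were too low to be tested. Their part in the level of Alox12 was not tested.

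For chain elongation and ceramide synthesis, Elovl4, Cers3 and Sptlc3 were each under 6 normalized counts in every stromal sample. Elovl4 (chromosome 9, 83778692 to 83806277, minus strand) encodes the elongase of very long fatty acids. It ran from 141 through 201 to 211 in epithelium and was 3.03, 5.79, 0.536, 1.65 and 0.158 in the stroma of O1, O2, O3, Y1 and Y3. The difference was 6.39 ± 0.66 on the log2 scale (adjusted p = 4.8e-07, edgeR), and 7.13 without O2. Cers3 (chromosome 7, 66743504 to 66823691), the ceramide synthase that uses these chains, had 54.9, 68.6 and 77.2 as its lowest, median and highest epithelial values and 0.175, 1.07, 0.497, 0.206 and 0.709 in the same order in stroma. It differed by 6.92 ± 0.33 (adjusted p = 1.555e-12, edgeR). Sptlc3 (chromosome 2, 139493913 to 139637674), a subunit of serine palmitoyltransferase, which starts sphingolipid synthesis, ran from 24.1 through 42.4 to 51.8 in epithelium. In stroma it was 0.875 in O1, 0.0411 in O2, 0 in O3, 0.206 in Y1 and 0.788 in Y3. Its log2 fold change was 6.78 ± 0.55 (adjusted p = 1.618e-08, edgeR). Sptlc3 is overlapped by Gm14066 on the other strand, which shares no exon bases with it and had 279 counts over all samples against 7487 for Sptlc3.

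Abca12 (chromosome 1, 71242276 to 71414910, minus strand) is the transporter of lamellar granules, and its coefficient of variation was 5.82% over the 9 epithelial samples, 6.71% within numbered and 5.52% within lettered codes. Scaled over the epithelial samples alone, the coefficient was 8.59%. On that scale lettered samples (mean 230) lay above numbered ones (201) without overlap, though the difference was not called (adjusted p = 0.2953, edgeR). On the scale of both layers, Abca12 ran from 244 through 274 to 290 in epithelium, and was 1.11, 3.37, 1.19, 2.48 and 1.62 in the stroma of O1, O2, O3, Y1 and Y3. The log2 fold change was 7.09 ± 0.31 (adjusted p = 7.468e-13, edgeR). Ugcg (chromosome 4, 59189257 to 59222833), which glucosylates ceramide in many cell types, had a smaller difference. Its epithelial values were 64.5 at the lowest, 71.7 at the median and 94.6 at the highest, against 5.19, 9.53, 3.63, 3.82 and 6.62 in stroma. It was 3.73 ± 0.24 higher on the log2 scale (adjusted p = 6.468e-11, edgeR), and the layers did not overlap.

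Fabp5 (chromosome 3, 10012548 to 10016607), a fatty acid carrier of keratinocytes, had the largest counts of the 9 genes in epithelium, though not in every stromal sample. It ran from 383 through 683 to 900 in epithelium and was 1.40 in O1, 21.8 in O2, 9.91 in O3, 3.82 in Y1 and 5.91 in Y3 in stroma. The log2 fold change was 6.31 ± 0.58 (adjusted p = 2.168e-08, edgeR), and 6.94 without O2. Of the counts of the 9 genes in an epithelial sample, Fabp5 took 29.5% to 46.8%, and the 9 genes took 0.380% to 0.587% of protein-coding counts in epithelium and 0.00562% to 0.0153% in stroma. Fabp5 has a near copy, Fabp5l2, which is listed with 384 counts over all samples against 127838 for Fabp5, and the counting of reads that match both is not given in the sources used here.

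Compared within the 5 mice with both layers, stroma held little of most of these RNAs. For 7 genes the stromal level was 0.0% to 2.76% of the epithelial level of the same mouse. Ugcg stood at 7.66% in O1, 12.4% in O2, 5.14% in O3, 5.92% in Y1 and 7.67% in Y3, and Alox12 at 78.4%, 6.38%, 8.44%, 56.7% and 25.4% in the same mice. The stroma of O2 was the highest for 6 of the 9 genes and also had the highest sum of superficial keratinocyte markers, 456 against 36.0 to 205 in the other 4 stromal samples. The basal keratinocyte markers were instead highest in the stroma of O3, at 98.7 against 61.7 in O2 and 48.48 to 50.04 in the other 3, and Alox12b and Sptlc3 had 0 counts in O3. The part of keratinocyte RNA in these stromal levels was not tested.

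**Figure D2:**
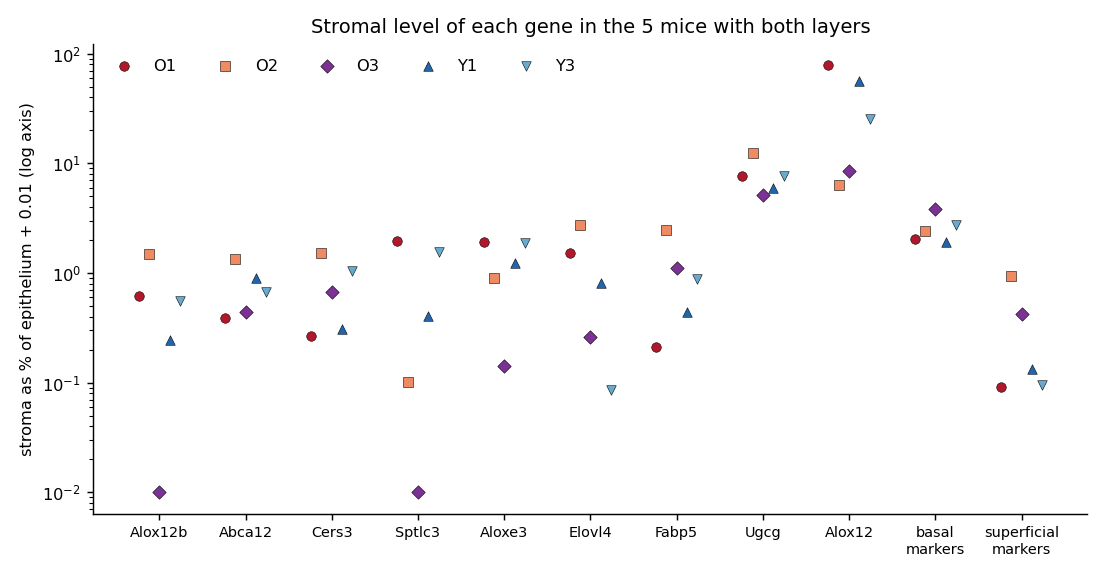
Stromal level as a percent of the epithelial level of the same mouse (plus 0.01, log axis) for the 9 genes and the summed basal and superficial markers, with 1 symbol for each of 5 mice. Ugcg (5.14% to 12.4%) and Alox12 (6.38% to 78.4%) lie above the other 7 genes, which reach 2.76% at most.

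Levels were set against each other per kilobase of merged exons, as the mean normalized count per kilobase over the 9 epithelial samples. Fabp5 was first with 191 ± 49.7 (SD, n = 9), followed by Alox12b with 106 ± 24.3 and Elovl4 with 61.8 ± 9.23, each above the next gene in all 9 samples. Cers3 (20.7 ± 2.15) was above Abca12 (18.1 ± 1.05) in 8 of 9 samples. Ugcg (14.8 ± 2.19), Aloxe3 (14.2 ± 5.61) and Sptlc3 (14.2 ± 3.15) did not differ beyond their spread over the pooled samples. On merged exons their order changed with the code form. Sptlc3 was above Ugcg in every numbered sample and below it in every lettered one. Aloxe3 was below Sptlc3 in every numbered sample and above it in the lettered OF5, OM8 and YF5, though not in YM4. Alox12 was last with 2.06 ± 0.475. With the length of the longest coding transcript in place of merged exons, Aloxe3 moved to the fourth place with 30.2 ± 11.9, since its merged exons are 6397 bases and that transcript 3019. Abca12 (29.3 ± 1.71) was then above Cers3 (20.7 ± 2.16) in 9 of 9 samples, so their order depends on the length used, and Fabp5 had 691 ± 180 with 987 in place of 3567 bases. With the transcript length, Ugcg (19.2 ± 2.85) was above Sptlc3 (14.7 ± 3.25) in 8 of 9 samples, and Aloxe3 was above Sptlc3 in every sample. The change of these orders with code form therefore also depends on the length used.

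Genes around these enzymes were counted by list in the same comparison of the layers. Over all lists, 112 genes were tested, of which 67 were higher in epithelium and 23 lower, where 26.1% of all genes tested were higher and 30.1% lower. In the acylceramide and corneocyte lipid pathway, 13 of 15 tested genes were higher, 1 was lower and 1 was not called, with a median log2 fold change of 4.13. The largest differences were in Sult2b1, a cholesterol sulfotransferase (6.69 ± 0.48, SE), Acsbg1, an acyl-CoA synthetase (6.56 ± 0.62), and Ephx3, an epoxide hydrolase (6.06 ± 0.59). Tecr, the last enzyme of the elongation cycle, was lower (-1.02 ± 0.16), and its call was lost under 1 alternative. Lipn was too low to be tested.

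In serine palmitoyltransferase and ceramide synthesis, 9 of 15 genes were higher and 2 lower (median 1.15). Sptssb, a small subunit of serine palmitoyltransferase, had the largest difference of the list (8.64 ± 0.58), with 0.196 normalized counts in stroma and 85.7 in epithelium. Sptlc1 (3.49 ± 0.42) and Degs2 (3.05 ± 0.35) were higher too. The other ceramide synthases that were called lower were Cers1 (-4.73 ± 0.68), known from brain and muscle, and Cers2 (-0.62 ± 0.23), whose call was lost under 9 alternatives, among them leaving out O2 (-0.55), Y1 (-0.52) or Y3 (-0.57). In ceramide glucosylation, sphingomyelin and ceramide turnover, 11 of 21 were higher and 2 lower (median 0.88). Acer1, an alkaline ceramidase of skin (5.48 ± 0.52), Gltp, a glycolipid carrier (4.50 ± 0.29), and Smpd3, a sphingomyelinase (3.77 ± 0.27), were at the top. B4galt6 (-2.50 ± 0.28) and Psap (-0.73 ± 0.17) were lower, and the call of Psap was lost under 2 alternatives.

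The lists with paralogs of the barrier genes and related enzymes were split. Of 4 tested genes for other lipoxygenases and their partners, none was called higher, while Gpx4 (-3.17 ± 0.25), which reduces lipid hydroperoxides, and Alox5ap (-1.73 ± 0.60), the partner of Alox5, were lower (median -1.89). The call of Alox5ap was lost under 6 alternatives, among them leaving out O1 (-1.36) or Y1 (-1.69). The list of other elongases and desaturases also held Fasn and Acaca, which are neither. Of its 11 tested genes, 6 were higher, led by Elovl7 (5.12 ± 0.53), Elovl1 (4.13 ± 0.24) and Elovl6 (3.64 ± 0.50). Another 4 were lower, with Scd1 (-5.26 ± 0.40), Fads3 (-2.50 ± 0.33) and Fads1 (-1.14 ± 0.36) the furthest. Every elongase tested was called higher, Elovl5 (0.92) included, and the genes called lower were desaturases and Fasn (-1.02). Fads1 was no longer called under 6 alternatives, leaving out O3 (-0.44) among them. Elovl1 also counts in the acylceramide list. Of 12 other ABCA transporters, 8 were lower, among them Abca8b (-2.71 ± 0.26), Abca13 (-2.40 ± 0.77) and Abca8a (-2.37 ± 0.18), and Abca7 was the 1 called higher (0.71 ± 0.24). Abca13 was not called under 3 alternatives, leaving out Y1 (-2.02) among them, and Abca7 lost its call under 8 alternatives. Among 3 tested fatty acid binding proteins beside Fabp5, Fabp6 was higher (2.53 ± 0.90, at under 1 normalized count in epithelium, 0.992) and Fabp4 (-6.22 ± 0.58) and Fabp3 (-5.05 ± 0.54), carriers of fat and of muscle, were lower. Fabp6 was not called under 6 alternatives, among them leaving out O1 (2.25), O2 (2.44) or Y1 (2.59). The 7 adipocyte markers, Fabp4 among them, summed to 3.33 to 10.7 in epithelium and 283 to 1021 in stroma, and Scd1 and Fabp4 are known from fat.

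In cholesterol synthesis all 19 genes tested were higher in epithelium (median 2.97, and 17 to 19 genes over the alternatives other than the stricter filter and the fold of 2), with Sqle (4.45 ± 0.38) and Fdps (4.09 ± 0.34) among the highest. Of 13 transcription factors known for the control of barrier or lipid genes, 8 were higher and 2 lower (median 0.99). Grhl3 (6.27 ± 0.65), Grhl1 (5.84 ± 0.39) and Ovol1 (5.37 ± 0.69) were highest, and Nr1h3 (-3.37 ± 0.34) and Pparg (-1.43 ± 0.55) were lower. Pparg lost its call under 8 alternatives, among them leaving out O1 (-1.29), Y1 (-1.42) or Y3 (-1.20).

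**Figure D3:**
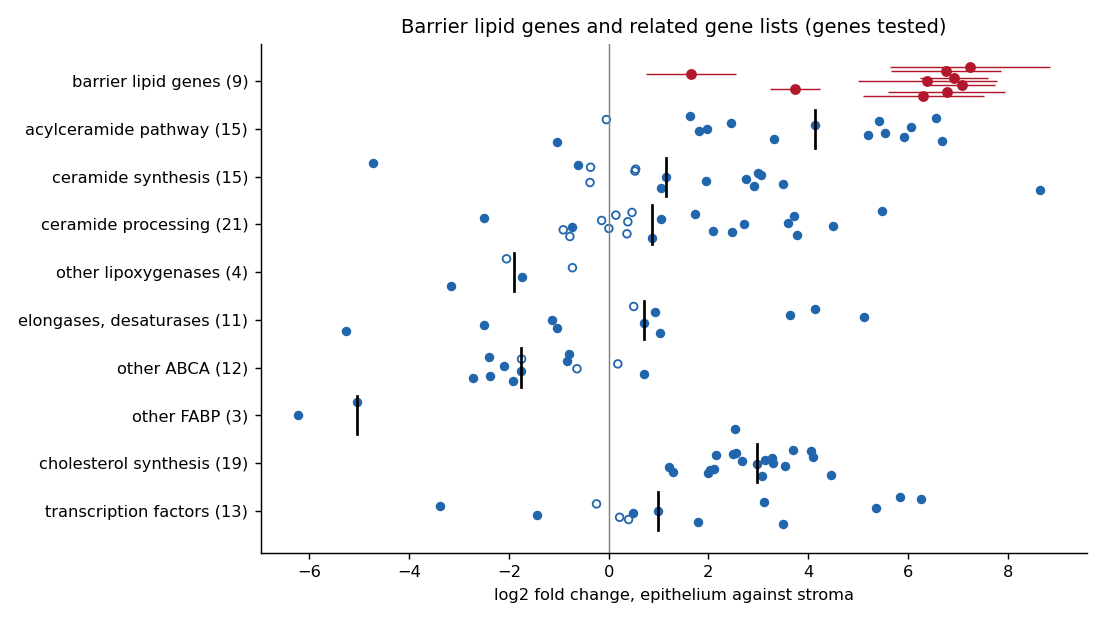
Log2 fold change of epithelium against stroma for the 9 genes (red, with 95% intervals) and for the tested genes of each list (blue, filled where called, with the list median as a bar). Cholesterol synthesis lies wholly above 0, while other ABCA and FABP genes lie mostly below it.

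Age was compared in epithelium only (9 samples), on the scale of these samples, and the fit had a term for code form. None of the 9 genes was called (edgeR and DESeq2), where 2 of 15859 genes, 0.0126%, were called at all by edgeR. At an unadjusted p under 0.05, 1 of the 9 genes and 3.21% of all genes passed, and in none did the age groups fall apart, against 1.31% of all genes. The 95% intervals of the log2 fold changes of aged against young ran from -0.57 to 0.59 over the 9 genes.

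Sptlc3 had the smallest p. Its normalized counts were 33.6, 33.2, 32.0, 20.9 and 26.1 in the aged O1, O2, O3, OF5 and OM8 and 38.7, 38.6, 31.6 and 33.2 in the young Y1, Y3, YF5 and YM4. The aged samples were lower within each code form, where 3.75% of all genes separated in the same direction in both forms, but overlapped when pooled. Within lettered codes, with 2 samples against 2, 6 of the 9 genes and 36.7% of all genes separated by age. There Alox12b, Cers3, Elovl4, Sptlc3 and Fabp5 were lower in aged samples and Aloxe3 was higher. The log2 fold change of Sptlc3 was -0.32 ± 0.12 (95% interval -0.57 to -0.07, edgeR, adjusted p = 0.9996), and within the forms -0.23 for numbered and -0.41 for lettered codes. Alox12b had 216, 232, 215, 160 and 138 in the aged and 247, 188, 254 and 187 in the young samples, which overlapped, and a log2 fold change of -0.24 ± 0.15. It was 0.02 within numbered and -0.52 within lettered codes, with an interaction of -0.58 ± 0.27 (95% interval -1.15 to -0.01, unadjusted p = 0.04512, adjusted p = 0.5403, edgeR).

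Aloxe3 showed opposite age differences in the 2 code forms. Among numbered codes it was 47.9, 41.1 and 43.5 in the aged O1, O2 and O3 against 59.3 and 58.0 in the young Y1 and Y3. Among lettered codes it was 129 and 117 in the aged OF5 and OM8 against 102 and 68.8 in the young YF5 and YM4. The log2 differences were -0.41 and 0.57, and pooled with the covariate -0.01 ± 0.17. The interaction of age and code form was 0.94 ± 0.26 on the log2 scale (95% interval 0.38 to 1.49, unadjusted p = 0.002744, edgeR), with an adjusted p of 0.4721 by edgeR and 0.1083 by DESeq2. In edgeR 0 genes were called for this interaction and 9.05% had an unadjusted p under 0.05, and in DESeq2 20 were called. Groups separated in opposite directions in both forms in 2.62% of genes.

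The code forms themselves differed. Against numbered codes, lettered codes had more Aloxe3 (log2 fold change 1.06 ± 0.17, adjusted p = 0.0009052, edgeR) and less Sptlc3 (-0.37 ± 0.12, adjusted p = 0.04945), and these 2 were called where 14% of all genes were. Fabp5 (-0.44 ± 0.16) missed the threshold with an adjusted p of 0.06626 (edgeR). The superficial markers summed to 17770 to 28750 in lettered and 42420 to 54510 in numbered samples and the basal markers to 898 to 1533 and 1817 to 2593, and protein-coding depth differed as given above. Their part in these differences was not tested. By age in epithelium, skeletal muscle markers summed to 170 to 1145 in aged and 231 to 1855 in young samples and fibroblast markers to 281 to 454 and 416 to 633. Within lettered codes the superficial markers summed to 20080 and 17770 in the aged OF5 and OM8 and 27470 and 28750 in the young YF5 and YM4. The basal markers summed to 898 and 1038 against 1203 and 1533. Both were lower in these aged samples, as were Sptlc3, Alox12b, Cers3, Elovl4 and Fabp5, while Aloxe3 was higher and Alox12, Abca12 and Ugcg overlapped. Within numbered codes the superficial markers summed to 44230, 49410 and 49510 in the aged O1, O2 and O3 and 54510 and 42420 in the young Y1 and Y3. The basal markers summed to 2373, 2557 and 2593 against 2550 and 1817. Both sums overlapped by age in numbered codes, where Sptlc3 was lower in aged samples too. Their part in the age differences was not tested. Of the 106 list genes tested by age, 0 were called by edgeR and 2 had an unadjusted p under 0.05, where 3.21% of all genes did.

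**Figure D4:**
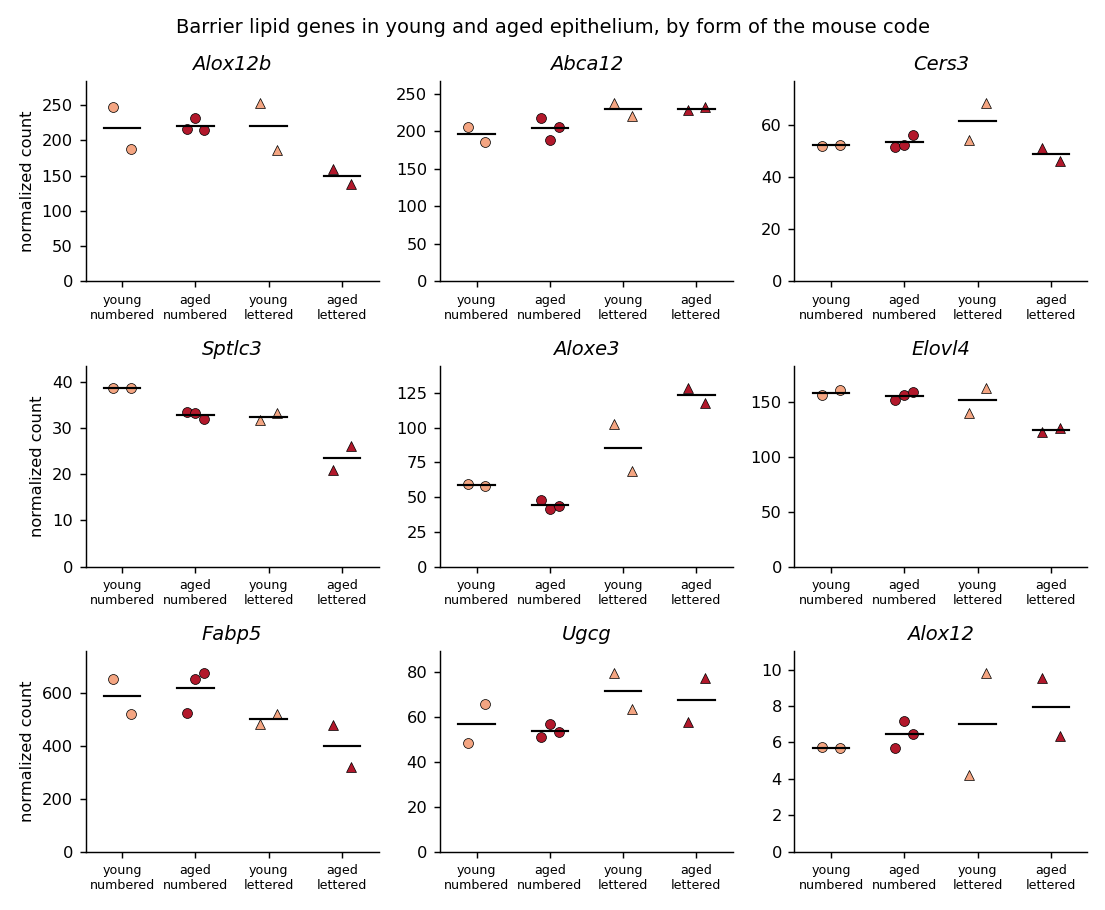
Normalized counts of the 9 genes in young and aged epithelium, by form of the mouse code, with bars for group means. Aloxe3 is lower in aged than in young samples among numbered codes and higher among lettered codes, and Sptlc3 is lower in aged samples in both.

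Genes with a pattern most like each of the 9 over the 9 epithelial samples were ranked by Pearson's r of log2 values after the mean of each code form was removed, among 1480 genes of at least moderate level. The r values are over few samples of unequal depth and are given as a description. Nearest to Elovl4 was Cd24a (r = 0.993), to Alox12b Tcp1 (0.983) and Klk10 (0.975), to Alox12 Sh3bgrl2 (0.973), to Sptlc3 Me1 (0.965), Scel (0.958) and Dsc2 (0.956), and to Cers3 Ywhaz (0.964). Aloxe3 was nearest to Rsrp1 (0.907), the gene model Gm28437 (0.894) and the long noncoding Neat1 (0.887). Abca12 was nearest to Plec (0.900) and Ubr4 (0.856), and Ugcg to Map3k20 (0.827). For Fabp5 the first were the gene models Gm15710 (0.981) and Gm8226 (0.968). Among the 36 pairs of the 9 genes, r ran from -0.79 (Aloxe3 with Cers3) to 0.912 (Cers3 with Elovl4), with a median of 0.0233.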

How the data were processed

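Bulk RNA-Seq counts of 9 epithelial and 5 stromal samples were re-analysed. The authors aligned reads to GRCm38.p6 with Rsubread and deposited whole-number counts per gene from featureCounts, without normalization. Strand and multi-mapping settings are not given in the sources used here. Positions are from GENCODE M21.

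The test was edgeR's quasi-likelihood test (edgeR 4.0.16, R 4.3.3) with TMM factors, robust glmQLFit and genes kept by filterByExpr (minimum count 10), with Benjamini-Hochberg adjustment over all genes tested, with a threshold of 0.05. Layers were compared over 14 samples without a covariate, since the methods of the study name none, and age over 9 epithelial samples with code form as a covariate. The standard error is the log2 fold change over the square root of F. DESeq2 1.42.0, other filters, scalings, subsets and blocks were alternatives. The procedure was tested on simulated data. Each same-group pair of samples differed by more than sampling noise (20 pairs, chi-square per degree of freedom at least 11.96).

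The layers of 1 mouse are paired by the code in the labels, with correlations of deviations from 0.0422 to 0.141. Numbers shared by aged and young mice (O1 with Y1, O3 with Y3, OF5 with YF5) mark different animals. Deviations from the age group means correlated at 0.31, 0.328 and 0.217, which meets the set limit of 0.1 for pairing. After code form was removed too, a centring added after those values were seen, they were -0.262, -0.398 and -0.203, and with so few samples for each age and form such residuals tend to be negative by construction. The blocked fit is given as an alternative.

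The 9 genes and the lists were chosen with earlier results of these data known. Genes were named by a rule: the 9 genes, up to 3 higher and 3 lower called genes of each list with the largest log2 fold change, and genes of like pattern whose average log2 CPM was 5 or more. Some genes that the rule names are not reported here. Genes printed outside it, such as Gm14066, Fabp5l2, Lipn and markers of other cell types, were chosen after their values were seen.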

Additional observations from a re-analysis of the deposited data

Results flagged for a closer look

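In young epithelium, Cers3 had 68.5 normalized counts in YM4 against 52.0, 52.3 and 54.1 in the other 3 young samples, a gap that stood apart by Dixon's test. Of 18 sets of samples examined, chance alone would mark about 1 in 20.

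The age difference of Aloxe3 went in opposite directions in mice with numbered and with lettered codes, with an interaction of 0.94 on the log2 scale that did not pass the adjustment over all genes (edgeR adjusted p = 0.4721). The comparison by code form was added after seeing the data.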

How the results depend on the processing

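Between the layers, 174 of 175 alternative values of the 9 genes kept their direction and call. The exception was Alox12 tested against a fold of 2 (adjusted p 0.0647, with a range of 3.797e-08 to 0.0647 over its alternatives, edgeR and DESeq2). Folds of 3 of the 9 genes moved by over 1.5 times, all upward. Alox12b, Elovl4 and Fabp5 (log2 fold changes of 7.24, 6.39 and 6.31) were 8.03, 7.13 and 6.94 without O2, 7.93, 7.11 and 7.05 with mouse as a replicate block, and 8.06, 7.85 and 7.20 in young samples only. The number of genes called, 9441, became 4316 of 6711 with at least 10 counts in every sample and 4885 against a fold of 2, and was 8395 to 9484 when each mouse was left out. At least 10 counts in every sample left 4 of the 9 genes to test, and all 4 were called. With mouse as a replicate block 8590 genes were called, against 9400 in the same 10 samples without it. Of 715 values of the other named genes, 666 were unchanged in call and 49 fell below the threshold.

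By age, none of the 9 genes was called in the 18 alternatives run. The number of genes called, 2, was 28 with DESeq2, 36 without a filter, 4 in numbered and 1 in lettered codes, 0 without the covariate (241 at an unadjusted p under 0.05, edgeR), 3 with upper quartile normalization, 2 with the number in the code as a replicate block, and 0 to 3 when each mouse was left out (0 without Y1, where 609 passed unadjusted, and 1 without O1 or O3). Of 162 values of the 9 genes, 17 changed sign. Aloxe3 became 0.0048 with DESeq2, 0.02 with at least 10 counts in every sample, 0.57 in lettered codes, 0.06 without the covariate and 0.01 with upper quartile normalization, and ran from -0.19 to 0.10 over the mice left out. In numbered codes Alox12b was 0.02, Cers3 0.03 and Fabp5 0.08. With the replicate block Cers3 was 0.01 and Fabp5 0.02, and the block changed no call of the 9 genes. Fabp5 ran from -0.22 to 0.02 and Ugcg from -0.17 to 0.03 over the mice left out. The causes were not tested.

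Between the layers the median of all genes shifted by 0.198 without a filter and by -0.113 without abundant and mitochondrial genes. DESeq2 gave no adjusted p for 49 of 16791 genes by layer and 4623 of 15859 by age. Depth limits the lettered samples most, where Alox12 had as few as 12 counts, and 3 counts are worth up to 1.25.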
